A study of Mus musculus with 8 samples.

Results

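The genes of MHC class I antigen presentation were examined in RNA-Seq data from mouse dental pulp (DP), with *H2-T10* as the gene of departure. The set holds 10 genes that were chosen by name with the genotype difference in view, because *H2-T10* was higher in the mutants while its relatives were lower, so every genotype difference of these genes is given here as a description and without a test. Of the 10 genes, 9 were among the 12148 genes of the deposited table, and *H2-Q4* was not analysed here. The RNA came from the DP of mandibular first molars at postnatal day 7 (P7), in 4 libraries from Osterix-Cre control mice and 4 from Osterix-Cre:*Tgfbr2f/f* mice, called *Tgfbr2cko*. Both genotypes carry Cre recombinase driven by the promoter of Osterix, a transcription factor of the mesenchyme that gives rise to odontoblasts and osteoblasts, and *Tgfbr2cko* mice also carry *Tgfbr2*, the type II receptor of TGFβ, flanked by loxP sites. The DP also holds vessels, leukocytes and nerve endings, which share the RNA of each library. The strain label is C57BL/6J for all 8 libraries, left and right molars were combined, and whether a library was made from 1 mouse or several is not stated. The titles carry a further number that recurs within a genotype and is not explained, so whether libraries share an animal or litter is unknown. The SDs and p-values therefore measure the spread between these libraries only, which may in part be technical.

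MHC class I molecules show the contents of a cell to the immune system. A heavy chain pairs with β2-microglobulin, peptides cut by the proteasome are carried into the endoplasmic reticulum by the TAP transporter, and tapasin holds the empty molecule at the transporter until a peptide is bound. The classical heavy chains *H2-K1* and *H2-D1* present peptides to cytotoxic T cells and are made by nearly all nucleated cells, while the nonclassical heavy chains of the T region, *H2-T10*, *H2-T22* and *H2-T23*, have narrower tasks. T10 and T22 are recognized by a group of γδ T cells and hold no peptide, and the product of *H2-T23*, Qa-1, presents leader peptides of other class I molecules to inhibitory receptors of natural killer cells. Interferons are known to raise most of these genes together.

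Values are log2 CPM as deposited, where CPM are counts scaled to a common library size with 0.5 added to each count, and they could be turned back into whole reads. The table holds only genes that passed the authors' filter. The label numbers 49 to 52 mark the Osterix-Cre libraries and 53 to 56 the *Tgfbr2cko* libraries. Between 8682872 and 13539670 reads were counted per library, so that 1 read stood for 0.0739 to 0.115 CPM. The log2 value of *Tgfbr2* was 7.16, 7.62, 7.64 and 7.52 in the controls against 7.02, 7.00, 7.16 and 7.61 in the mutants, and the groups overlapped. These reads fall anywhere in the gene and come from cells with and without Cre, so they check the labels only in part, and in the library labelled *Tgfbr2cko* 56 the value was at the level of the controls. That library also stood apart in its enamel genes, with 18.5% of its reads from *Amelx* and *Ambn*, the main enamel matrix genes, against 0.326 to 2.74% in the other 7. Each member's difference, and the main sums and gene differences that rest on it, are therefore also given without it. The 8 markers of odontoblasts and DP mesenchyme, of which *Col1a1*, *Col1a2* and *Dspp* were abundant and *Twist1* was low, had a summed level of 64316 to 135501 CPM in the controls. The mutants held 39058 to 76973 CPM, or 43412 to 76973 CPM without library 56. No lymphocyte marker of 9 listed was among the genes analysed.

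*H2-T10* and *H2-T22* are close relatives in the T region of chromosome 17, and their likeness sets how well reads can be assigned to either. In GENCODE M21 on GRCm38, *H2-T10* covers 36115876 to 36121465 and *H2-T22* covers 36037128 to 36042747, both on the minus strand. *H2-T22* is annotated as protein coding, whereas *H2-T10* is annotated as a polymorphic pseudogene, a class for genes that are intact in some strains of mice and disrupted in others. A coding sequence of 1137 bases is nevertheless annotated for both genes on GRCm38. Their coding sequences were identical at 1099 of 1134 aligned bases (96.9%), with a longest identical run of 134 bases. *H2-K1* and *H2-D1*, the next closest pair among the analysed genes, were 91.9% identical. The stretch of 80 bases within 1 exon that holds most differences between *H2-T10* and *H2-T22* is shown because reads can be told apart there. It covers coding bases 645 to 724 of both genes, in the part that encodes the α3 domain. The 9 differing bases are in capitals, and both sequences run 5′ to 3′ on the minus strand of GRCm38, *H2-T10* at chr17:36119324-36119403 in exon 5 and *H2-T22* at chr17:36040613-36040692 in exon 4.
H2-T10: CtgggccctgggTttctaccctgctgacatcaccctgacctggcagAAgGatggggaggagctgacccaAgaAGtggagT
H2-T22: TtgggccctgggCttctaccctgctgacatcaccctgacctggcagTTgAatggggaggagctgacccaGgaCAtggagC

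Over the whole *H2-T10* transcripts, 50.4% of windows of 50 bases occurred also in a transcript of another gene. *H2-T22* held 31.7% of the windows and *BC023719*, an RNA on the opposite strand, held 24.9%. With windows of 100 bases the shared part was 28.1%, and *H2-T22* held 7.06% of these windows. *H2-T22* itself shared 53.5% of its windows of 50 bases. For the other heavy chains the shared part was 9.63% in *H2-K1*, 12.8% in *H2-D1* and 14.5% in *H2-T23*, and *B2m* shared none. Exons of the opposite strand also overlapped 27.1% of the exon bases of *H2-T10* and 29.4% of those of *H2-T22*. Whether the counting used the strand is not given in the sources used here, so reads from these stretches cannot be told apart, and the values of *H2-T10* and *H2-T22* are uncertain to that extent.

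The *H2-T10* transcript was near the limit of detection in the controls and was counted in all mutants. The controls held 12, 3, 5 and 9 reads of *H2-T10* and the mutants 72, 20, 56 and 54 reads. On the log2 scale the values were 0.35, -1.46, -0.79 and -0.11 in the controls against 3.03, 0.74, 2.70 and 2.01 in the mutants. All 4 mutant libraries lay above all 4 controls, with library 54 the closest to them. The means were -0.50 ± 0.79 and 2.12 ± 1.01 (SD, n = 4 each), a difference of 2.62 and a fold of 6.16, which depends in part on the 0.5 added to such low counts. The difference was 3.08 without library 54 and 2.66 without library 56. Over the whole table, 2.13% of genes had every mutant value above every control. That share is printed as background and nothing is read from it, since *H2-T10* was chosen on this contrast.

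*H2-T22* was lower in 3 of the 4 mutant libraries and stood at the level of the controls in the fourth. Its log2 values were 4.94, 4.98, 5.19 and 5.34 in the controls against 4.32, 5.44, 4.14 and 4.15 in the mutants, from 300, 305, 346 and 415 reads and from 177, 532, 153 and 240 reads. Library 54 held the highest value of all 8, so the groups overlapped. The means were 5.11 ± 0.19 and 4.51 ± 0.62 (SD, n = 4 each), a difference of -0.60, or 1.52-fold lower in the mutants. Without library 54 the difference was -0.91, which is over 1.5 times as large, and without library 56 it was -0.48.

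*H2-T23*, the gene of Qa-1, followed a similar order over the mutant libraries as *H2-T22*. Its log2 values were 6.85, 7.01, 6.52 and 6.90 in the controls against 5.89, 6.68, 5.88 and 5.58 in the mutants. Library 54 was again the highest mutant and lay within the controls, while libraries 53, 55 and 56 lay below them. The means were 6.82 ± 0.21 and 6.01 ± 0.47 (SD, n = 4 each), a difference of -0.81, or 1.76-fold lower. Without library 56 the difference was -0.67, and without library 54 it was -1.04. The same library, 54, thus had the lowest *H2-T10* and the highest *H2-T22* and *H2-T23* of the mutants.

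**Figure D1:**
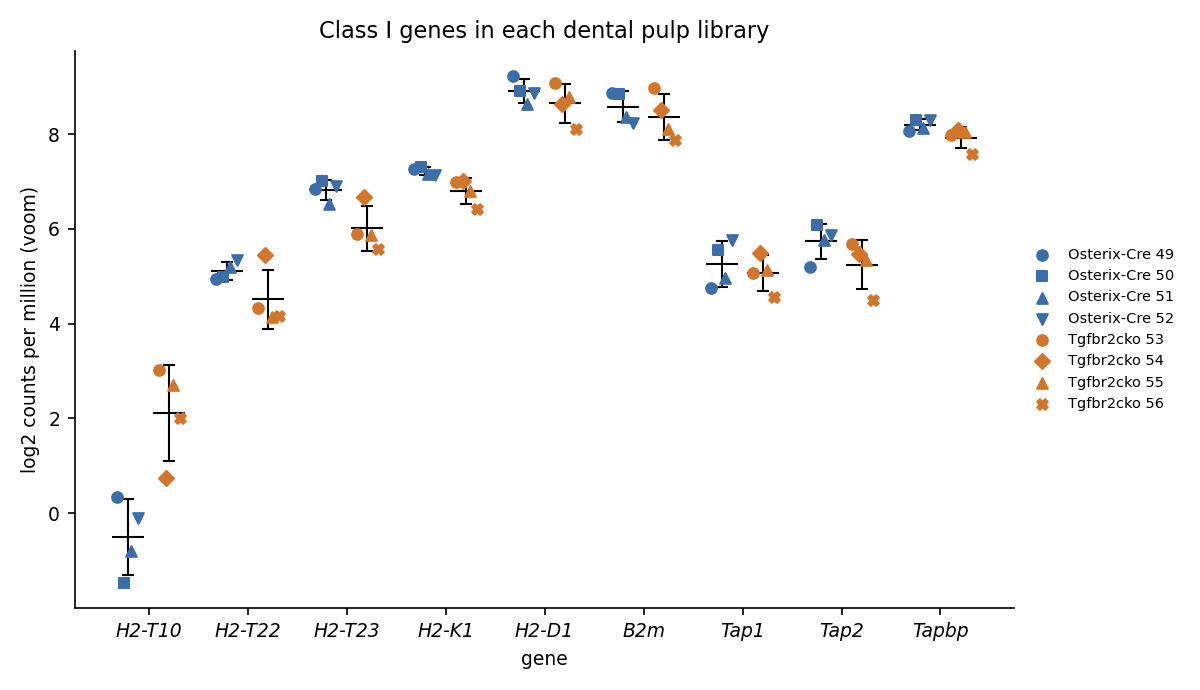
Level (log2 CPM) of the 9 class I genes analysed, with 1 point per library, blue for Osterix-Cre and orange for *Tgfbr2cko*, and the mean with its SD as black lines (n = 4 each). *H2-T10* is the only gene whose mutant values all lie above the controls, and library 54, the orange diamond, is the lowest mutant for *H2-T10* and the highest for *H2-T22* and *H2-T23*.

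Because the sequences of *H2-T10* and *H2-T22* overlap, their reads were also put together. *H2-T10* took 3.85, 0.974, 1.42 and 2.12% of the summed reads of both genes in the controls. In the mutants it took 28.9, 3.62, 26.8 and 18.4%. The 95% Wilson interval of library 54, 2.36 to 5.53%, overlapped those of the controls, which reached from 0.332 to 6.60%, whereas the lowest limit in libraries 53, 55 and 56 was 14.4%. These intervals cover counting error only. The summed level of both genes was 5.14 ± 0.18 in the controls against 4.84 ± 0.46 in the mutants (log2 CPM, SD, n = 4 each), a difference of -0.31 that ranged from -0.53 without library 54 to -0.18 without library 56. How many reads of either gene the alignment placed on the other was not tested, and neither sequence variants nor the MHC haplotype of the mice were analysed here.

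**Figure D2:**
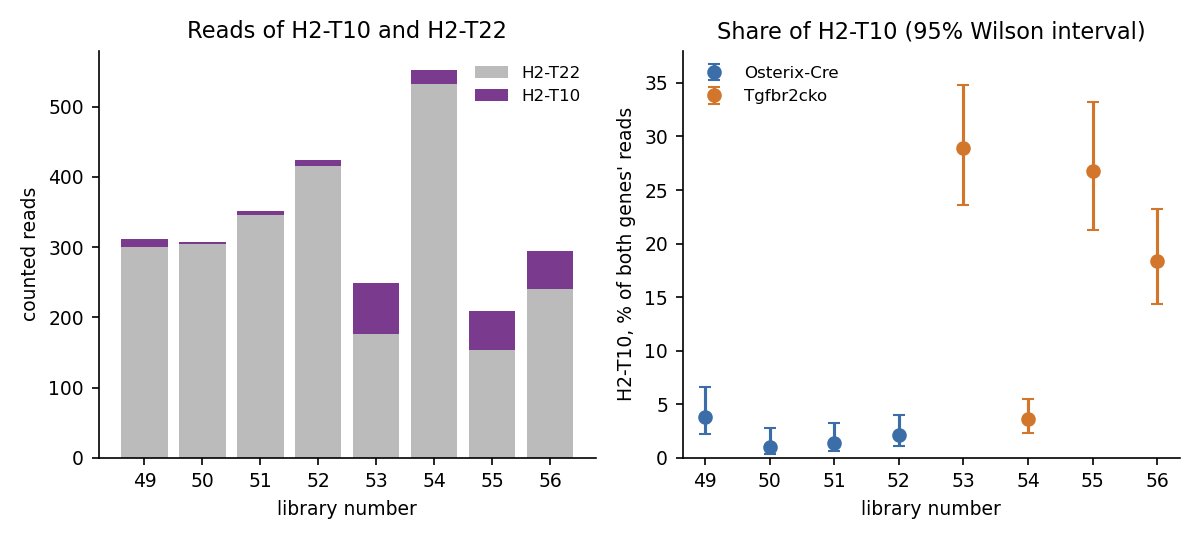
Counted reads of *H2-T22* (grey) and *H2-T10* (purple) in each library on the left, and the share of *H2-T10* in the reads of both genes with its 95% Wilson interval on the right, blue for Osterix-Cre and orange for *Tgfbr2cko*. In libraries 53, 55 and 56 the share was between 18.4 and 28.9%, while library 54 with 3.62% lay with the controls.

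The classical heavy chains differed between the genotypes by less than *H2-T22* and *H2-T23*, and this contrast between the genes was not tested. *H2-K1*, at 33996017 to 34000347 of chromosome 17, had log2 values of 7.27, 7.31, 7.15 and 7.13 in the controls against 6.98, 7.01, 6.79 and 6.43 in the mutants. All mutants lay below all controls, as for 3.14% of all genes, although the means of 7.21 ± 0.09 and 6.80 ± 0.27 (SD, n = 4 each) differed by only -0.41, or 1.33-fold. The difference was -0.29 without library 56. *H2-D1*, on the same chromosome at 35262730 to 35267499, had values of 9.22, 8.91, 8.62 and 8.87 in the controls against 9.08, 8.62, 8.78 and 8.10 in the mutants. The groups overlapped, and the difference of the means, -0.26, was smaller than the SD of the mutants, 0.41. It was -0.08 without library 56 and -0.41 without library 53.

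Heavy chain reads as a whole were mostly those of *H2-D1*. Of the summed reads of the 5 heavy chain genes, *H2-D1* took 59.3 to 66.5% in the controls against 58.8 to 71.7% in the mutants, and *H2-K1* took 17.1 to 21.4% and 16.7 to 19.97%. *H2-T23* took 12.8 to 16.1% in the controls, whereas the mutants gave 7.87, 15.3, 9.29 and 11.1%. *H2-T10* stayed at or under 1.08% in every library. The summed heavy chain level was 783 ± 95.9 CPM in the controls against 622 ± 137 CPM in the mutants (SD, n = 4 each), with overlapping ranges of 666 to 898 and 431 to 753 CPM. Without library 56 the mutants held 686 ± 61.7 CPM (SD, n = 3), from 633 to 753 CPM.

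*B2m*, the shared light chain of all these heavy chains, lies apart from them on chromosome 2 at 122147686 to 122153083. Its log2 values were 8.86, 8.84, 8.36 and 8.22 in the controls against 8.96, 8.51, 8.10 and 7.86 in the mutants. The highest and the lowest library were both mutants, and the difference of the means, -0.21, was smaller than the SD of either group, 0.33 and 0.48. It was -0.05 without library 56 and -0.41 without library 53. For each heavy chain read there were 0.388 to 0.574 *B2m* reads in the controls against 0.435 to 0.662 in the mutants, so the ratio of light to heavy chain reads overlapped as well.

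The genes of peptide transport and loading showed no separation of the genotypes. *Tap1*, a chain of the peptide transporter, had log2 values of 4.75, 5.55, 4.95 and 5.77 in the controls against 5.07, 5.49, 5.14 and 4.56 in the mutants. Its difference of -0.19 was small against SDs of 0.48 and 0.39, and it was -0.02 without library 52 or without library 56. It turned to 0.15 when libraries 52 and 56 were both left out and to 0.02 with the average of the enamel matrix genes as a further term. *Tap2*, the partner of *Tap1*, had values of 5.20, 6.09, 5.77 and 5.87 in the controls against 5.67, 5.47, 5.34 and 4.50 in the mutants, a difference of -0.49 that was -0.24 without library 56. *Tapbp*, which encodes tapasin, had values of 8.06, 8.30, 8.13 and 8.29 in the controls against 7.99, 8.08, 8.05 and 7.59 in the mutants, a difference of -0.27 that was -0.16 without library 56.

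Over the 9 genes, 8 had a lower mean in the mutants, as did 6215 of all 12148 genes. The median difference was -0.27 with *H2-T10* and -0.34 without it, where that of all genes was -0.01. Library 56 was the lowest of the 8 for 7 of the 9 genes, also after each library was centred on its median. *H2-T22* was lowest in library 55 and *H2-T10* in library 50. Leaving out library 56 brought that -0.34 to -0.20, with all 8 still lower, while the median of all genes was then 0.07. In bulk tissue, fewer cells of a type and less RNA per cell cannot be told apart.

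Likeness over the 8 libraries was measured as the root mean square difference between log2 values that were centred on each gene's own mean. The closest pair of members was *H2-K1* and *Tapbp* at 0.134, followed by *H2-D1* and *H2-K1* at 0.206. *H2-T22* was closest to *H2-T23*, at 0.257. The measure grows with a gene's own spread and *H2-T10* was chosen for moving apart from the others, so its distances to them are not given. Over the whole table the genes most like *H2-T10* included *Gm9855* at 0.786, *P2ry12* at 0.833, *Car3* at 0.893 and *Hopx* at 0.904. *P2ry12* encodes a purine receptor of microglia and platelets, *Car3* a carbonic anhydrase, and *Hopx* a small homeodomain protein. *P2ry12* had log2 values of 3.24, 3.34, 3.33 and 2.79 in the controls against 5.65, 5.13, 5.28 and 4.87 in the mutants. These 4 genes were picked for their likeness to *H2-T10* over the same libraries, so their own genotype differences are no separate observation. In *P2ry12*, *Car3* and *Gm9855* library 54 was not the lowest of the mutants, whereas in *Hopx* it was, at a log2 value of 2.52.

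Levels can be compared between genes only per length, as CPM per kilobase of exon. In the controls *B2m* was the highest at 451 ± 101, followed by *H2-D1* at 188 ± 32.6, *Tapbp* at 81.0 ± 6.65, *H2-K1* at 50.6 ± 3.10 and *H2-T23* at 39.4 ± 5.45 (SD, n = 4). *Tap2* followed at 14.4 ± 3.43, *H2-T22* at 10.2 ± 1.35 and *Tap1* at 7.25 ± 2.37, and the library values of *Tap2* and *H2-T22*, and of *H2-T22* and *Tap1*, overlapped. *H2-T10* came last at 0.215 ± 0.117, and in the mutants it reached 1.48 ± 0.830, still below the lowest mutant value of any other member, 4.29 for *Tap1*.

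**Figure D3:**
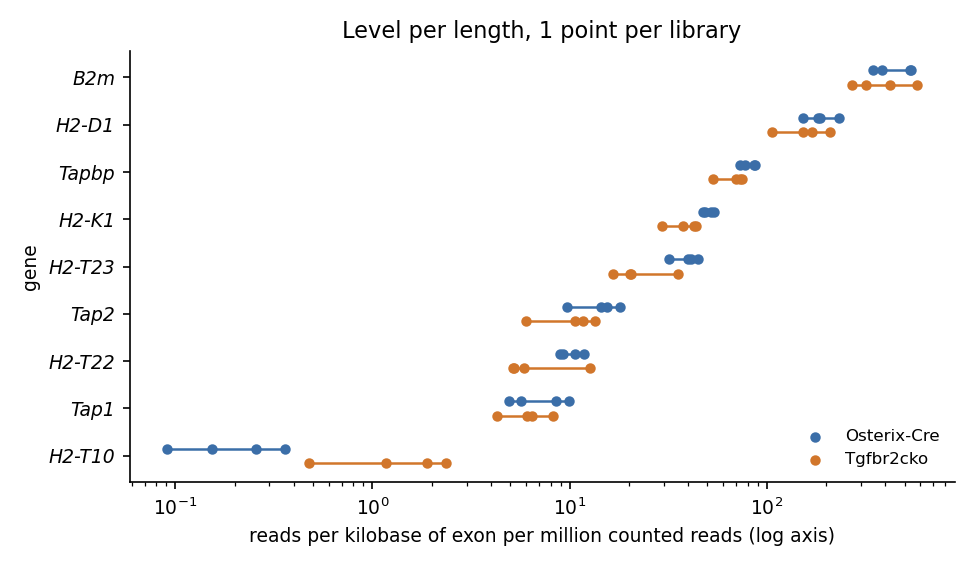
CPM per kilobase of exon on a log axis for each class I gene, 1 point per library, with a line over the range of each genotype (blue, Osterix-Cre; orange, *Tgfbr2cko*). The genes are ordered by the control mean, from *B2m* at 451 down to *H2-T10* at 0.215, and *H2-T10* and *H2-K1* are the genes in which the ranges of the genotypes do not meet.

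The promoters of these genes are shown where they carry motifs known from interferon and NF-κB control, and whether such control bears on their levels was not tested. RefSeq promoters on GRCm38.p6, 300 bases from 250 before the start, were at hand for 8 of the 10 genes, including *H2-Q4*. None was at hand for *H2-T10* and *Tap2*, so these were not searched for motifs. The core of the interferon-stimulated response element, searched as TTTC, any 2 bases and TTTC again, was found on either strand in *H2-T22*, *H2-T23* and *B2m* and in 3.44% of all 32851 promoters. TTTCACTT, which overlaps that core in *H2-T22*, was found in *H2-K1*, *H2-D1*, *H2-Q4* and *H2-T22* and in 1.60% of all promoters, and a κB site, the run of capitals that comes first in the sequences of *H2-K1* and *H2-D1*, was found in these genes and in 0.107% of all promoters. TGACG, the core of the cAMP response element, was in 20.8% of all promoters and in all of these 8 except *H2-T23* and *Tapbp*. The starts are those of RefSeq, and the stretches of *H2-D1* and *H2-T23* lie within the bounds of these genes in GENCODE M21. Each sequence runs 5′ to 3′ on the gene's own strand, with the matches to the interferon and κB motifs in capitals.
H2-K1 (chr17:34000415-34000473, minus strand): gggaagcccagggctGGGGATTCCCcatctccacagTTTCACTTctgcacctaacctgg
H2-D1 (chr17:35262908-35262966, plus strand): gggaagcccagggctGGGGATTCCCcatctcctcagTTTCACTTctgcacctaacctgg
H2-Q4 (chr17:35379449-35379486, plus strand): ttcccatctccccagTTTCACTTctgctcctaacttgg
H2-T22 (chr17:36042909-36042948, minus strand): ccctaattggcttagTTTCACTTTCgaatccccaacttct
H2-T23 (chr17:36032801-36032840, minus strand): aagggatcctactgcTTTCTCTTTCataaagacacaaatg
B2m (chr2:122147533-122147572, plus strand): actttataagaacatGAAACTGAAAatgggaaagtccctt
A match describes the letters only, and binding was not measured here.

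Genes near *H2-T10* were examined to see how far along the chromosome the genotypes differed. Within 1 Mb, 39 analysed genes other than class I genes had a median difference of -0.04. A gene was called where the unadjusted limma p was under 0.05 and the difference at least 1.5-fold, by which 2.12% of all genes rose in the mutants and 3.65% fell. *Lst1*, a gene of leukocytes 927437 bases from *H2-T10*, was the 1 neighbour called lower (-0.87, unadjusted p = 0.0109, adjusted p = 0.276 by limma), and none was called higher. Without library 56 the difference of *Lst1* was -0.62. *Gnl1*, the nearest of the 39 genes on the left at 126414 bases, differed by -0.09, and *Rpp21*, the nearest on the right at 134180 bases, by 0.02. With 1 library left out these ran from -0.19 (library 51) to -0.01 (library 56) for *Gnl1* and from -0.13 (library 52) to 0.15 (library 56) for *Rpp21*, whose sign thus depended on the libraries.

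**Figure D4:**
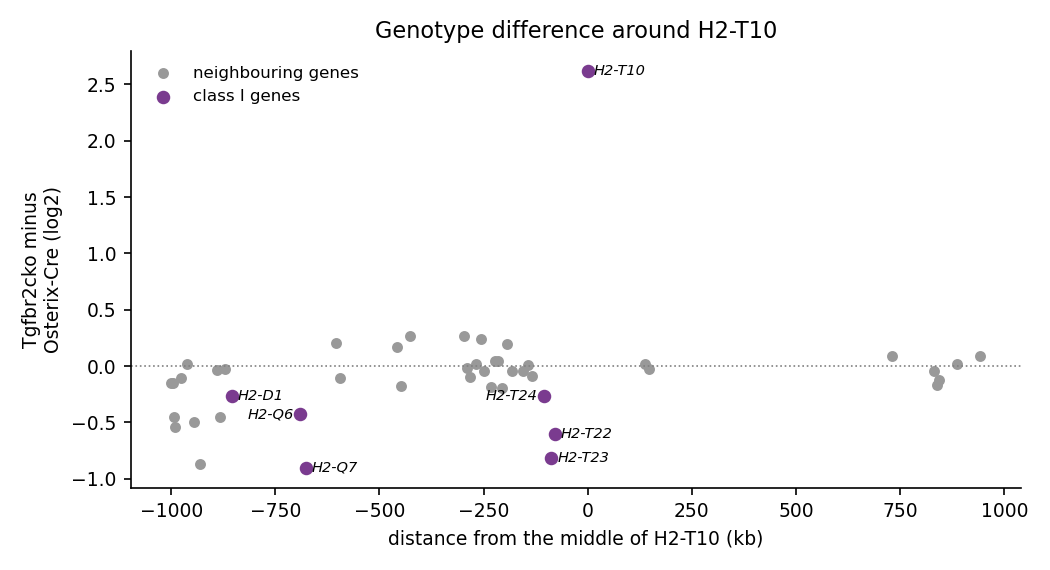
Genotype difference (*Tgfbr2cko* minus Osterix-Cre, log2) of each analysed gene within 1 Mb of *H2-T10*, by its distance from the middle of *H2-T10* in kilobases, with class I genes in purple and the 39 other genes in grey. *H2-T10* at 2.62 stands alone above genes whose median is -0.04, and the class I genes nearest to it lie below 0.

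Other genes of the pathway were taken from 6 lists by their role, with 64 of 79 listed genes analysed. Together they held 23 called genes, 1 higher and 22 lower, where 2.12% of all genes were called higher and 3.65% lower. Of the 64 genes, 3 had a limma adjusted p under 0.05, as did 0.947% of all genes. Of the 23 calls, 18 were interferon response genes. Of 9 other class I-like genes analysed of 18 listed, among them *Cd1d1*, *Mr1* and *H2-Q7*, 0 were called and 0 had an unadjusted limma p under 0.05. Their median difference was -0.27, and the most abundant of them, *Fcgrt*, the neonatal Fc receptor, differed by -0.27 ± 0.17 (SE), or by -0.13 without library 56. Of 11 genes of peptide supply, which hold the immunoproteasome subunits and the chaperones, 0 were called and 0 had an unadjusted limma p under 0.05, with a median of -0.08. *Pdia3*, the most abundant of these and a thiol oxidoreductase of the loading complex, differed by 0.16 ± 0.18 (SE), within its error, and by 0.06 without library 49 and 0.27 without library 51. Among 8 analysed regulators of class I transcription with a median of -0.17, *Irf1*, an interferon-induced transcription factor, was lower (-0.69 ± 0.22, SE; limma unadjusted p = 0.00746, adjusted p = 0.230), a call that was lost without library 52 (-0.58) or library 56 (-0.50). *Rela*, a subunit of NF-κB and the most abundant regulator, differed by -0.25 ± 0.15 (SE), or by -0.15 without library 56.

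Most interferon response genes fell in the mutants. Of 23 analysed, 18 were called lower, where 3.65% of all genes were, and 11 had every mutant below every control, where 3.14% of all genes did. All 23 had a lower mean, and the median difference was -0.91. *Irf7*, the transcription factor that amplifies the interferon response, had log2 values of 5.59, 5.84, 5.34 and 6.72 in the controls against 4.70, 4.54, 3.77 and 3.74 in the mutants. It fell by 1.68 (SE 0.30, limma adjusted p = 0.0159). *Isg15*, a ubiquitin-like protein induced by interferon, had values of 4.59, 4.31, 4.04 and 6.05 in the controls against 3.18, 3.17, 2.68 and 2.46 in the mutants, and it fell by 1.88 (SE 0.37, limma adjusted p = 0.0280). *Ifit1*, which binds foreign RNA, had the largest difference of the list, -2.36 ± 0.63 (SE, limma adjusted p = 0.124), with 7.74 in control library 52 against 4.19 to 5.30 in the other controls. Without library 52 the differences were -1.40 for *Irf7*, -1.44 for *Isg15* and -1.60 for *Ifit1*, and without library 56 they were -1.54, -1.74 and -2.24. Without both they were -1.25, -1.30 and -1.47.

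The other 15 called interferon genes had limma adjusted p-values over 0.05. They were the guanylate-binding and immunity-related GTPases *Gbp2*, *Gbp3*, *Gbp7*, *Igtp*, *Iigp1* and *Irgm1*, the RNA sensors and antiviral effectors *Ifih1*, *Ifit2*, *Ifit3*, *Oas1a* and *Oasl2*, and *Irf9*, *Rtp4*, *Trim25* and *Usp18*, with differences from -0.60 for *Trim25* to -1.73 for *Ifit3*. Leaving out a single library ended the call of *Gbp2* (library 50, 51, 52, 53 or 56), *Ifih1* (51, 52, 53 or 56), *Oas1a* and *Trim25* (49, 50, 52, 55 or 56 each) and *Iigp1* (55). Without library 52 the differences were -0.95 for *Ifit2*, -1.08 for *Ifit3*, -0.66 for *Iigp1* and -0.80 for *Usp18*. *Ifi27*, the most abundant gene of the list, differed by -0.14 ± 0.18 (SE), within its error, and with 1 library left out by -0.28 (library 53) to -0.03 (library 56). Control library 52 held the highest summed level of the list, 1569 CPM against 715 to 792 in the other controls. The mutants held 329 to 627 CPM, or 431 to 627 CPM without library 56. Without libraries 52 and 56 the list had 23 of 23 lower means, with a median of -0.51 and 9 calls. There were 22 of 23 lower means without library 49 or without library 56, and 21 of 23 with the average of the enamel matrix genes in the model. The 7 receptors and kinases of interferon signalling had 0 calls and a median of -0.07. *Ifngr2*, a chain of the interferon-γ receptor that is named here after its values were seen, was the 1 with an unadjusted limma p under 0.05 (0.39 ± 0.14, SE; limma adjusted p = 0.377), and *Jak1*, the most abundant, differed by 0.14 ± 0.18 (SE), within its error, and with 1 library left out by 0.02 (library 49) to 0.28 (library 56).

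Of 6 analysed MHC class II genes of 8 listed, which show peptides on professional antigen-presenting cells, 3 were called lower and 1 higher, with a median difference of -0.64. Over all genes, 3.65% were called lower and 2.12% higher. *Cd74*, the invariant chain, had log2 values of 5.75, 5.40, 4.59 and 4.42 in the controls against 3.05, 2.62, 2.26 and 3.40 in the mutants, and it fell by 2.21 (SE 0.32, limma adjusted p = 0.00444). Its difference was -2.40 without library 56. *H2-Ab1* and *H2-Eb1*, both β chains, were also called lower, with differences of -0.90 each and limma adjusted p = 0.408 and 0.423. *H2-DMb2*, a chain of the peptide exchange factor, was called higher by 1.66 (limma adjusted p = 0.520), from -1.55 to 2.21 in the controls against 0.34 to 2.59 in the mutants, and this call was lost without library 50, 51, 52, 53, 55 or 56. *H2-Ab1* lost its call without library 49, 50, 53, 55 or 56, and *H2-Eb1* without library 49, 50 or 56. *H2-DMb1*, the most abundant class II gene, differed by -0.39 ± 0.30 (SE), and by -0.24 without library 50, -0.72 without library 54 and -0.17 without library 56.

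**Figure D5:**
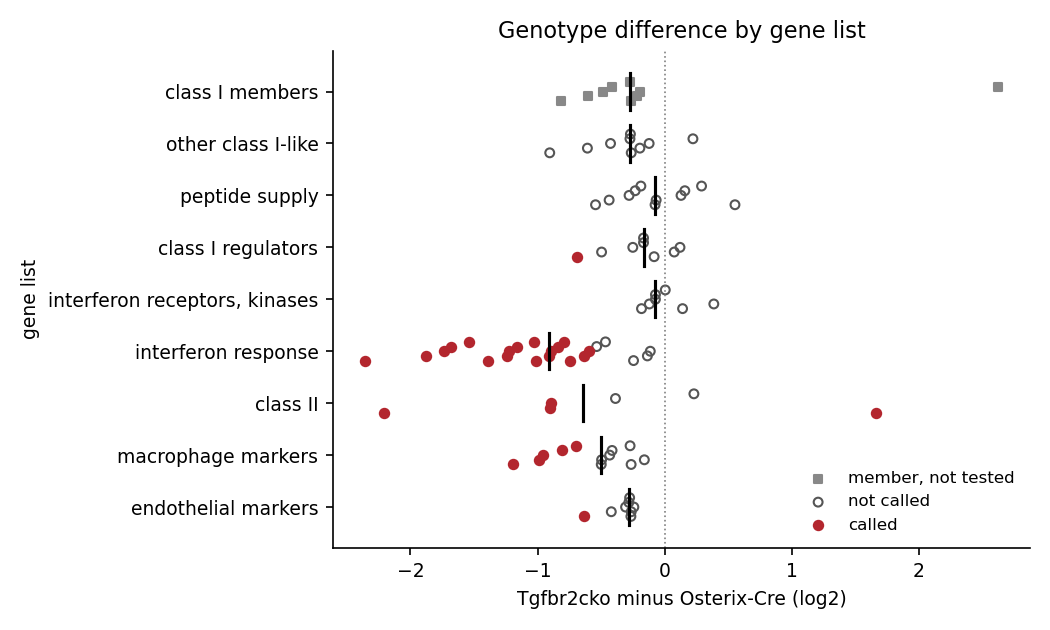
Genotype difference (*Tgfbr2cko* minus Osterix-Cre, log2) of each analysed gene by list, filled red where the gene was called at an unadjusted limma p under 0.05 and at least 1.5-fold, with a black bar at the median of the list. The class I members, grey squares, were chosen on this contrast and are not marked for calls; their median is -0.27 with *H2-T10* at 2.62 and -0.34 without it, while the interferon response genes lie around -0.91.

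Markers of other cells are given beside these lists. All 12 macrophage markers had a lower mean in the mutants, as did 6215 of all 12148 genes. Of the 12, 5 were called lower, *Cd68*, *Fcer1g*, *Lyz2*, *Mrc1* and *Ptprc*, where 3.65% of all genes were. The calls of *Cd68* and *Fcer1g* were lost without library 49, 50, 55 or 56, and that of *Cd68* also without library 51, with differences of -0.37 and -0.53 without library 56. The summed level of the markers was 1524 to 2094 CPM in the controls against 761 to 1709 CPM in the mutants, with the lowest value in library 56 and none of the 12 at 0 in any library. Without library 56 the mutants held 1151 to 1709 CPM. The 8 endothelial markers summed to 443 to 584 CPM in the controls against 369 to 494 CPM in the mutants, with *Tek* called lower, a call lost without library 50 (-0.51). The 11 enamel organ markers summed to 4193 to 23641 CPM in the controls against 4462 to 195952 CPM in the mutants, where the highest value was library 56 and the other mutants reached 30346 CPM. Of the 11, 5 had a lower mean, *Cdh1* was called higher (1.15, limma adjusted p = 0.527; 0.55 without library 56, with the call lost without library 49, 50, 52, 55 or 56) and the enamel protease *Klk4* was called lower (-2.71, limma adjusted p = 0.000136). Among the 8 odontoblast and mesenchyme markers, *Col1a2* was called lower (-1.22, limma adjusted p = 0.316). The part of these cells in the levels of the class I, class II and interferon genes was not tested. With the average log2 value of *Amelx*, *Ambn* and *Enam* as a further term of the model, the difference of *H2-T10* was 2.37. It was -0.65 for *H2-T23*, -0.39 for *H2-T22*, -0.30 for *H2-K1*, -0.20 for *Tap2*, -0.17 for *Tapbp*, -0.16 for *H2-D1*, -0.05 for *B2m* and 0.02 for *Tap1*, so that those of *H2-T22*, *H2-D1*, *Tap2*, *Tapbp* and *B2m* shrank by over 1.5 times and that of *Tap1* changed its sign.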

How the data were processed

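RNA was extracted from DP removed from the mineralized tissue, amplified from 1 ng with a low-input kit and sequenced, and samples with an RNA integrity number over 7 were used, per the labels. The authors trimmed the reads with fastp 0.21.0, aligned them with HISAT2 2.1.0 to GRCm38.p5, counted them per gene with featureCounts of Subread 2.0.1, limited the table to genes passed by the CLEAR workflow, and transformed the counts with voom. The deposited values are therefore log2 CPM with 0.5 added to each count. The build is from the submitters' processing notes, and the order of these tools is from the methods.

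All 97184 values turned back into whole counts with a largest distance of 3.35e-08 from a whole number, and voom on the recovered reads differed from the deposited log2 values by at most 4.97e-14. Reads per library ran from 8682872 to 13539670, and reads without molecular identifiers are not independent molecules. Of 12148 identifiers, 12144 matched GENCODE M21 without their version.

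The members and lists were chosen with earlier results of these data known. The genotypes were compared over all 12148 genes and 8 libraries with limma 3.58.1 in R 4.3.3, as a two-sided moderated test (limma-trend), and p was adjusted by the Benjamini-Hochberg method. A gene was called at an unadjusted p under 0.05 and at least 1.5-fold, which were the study's thresholds. Because only transformed values were deposited, voom weights on recovered reads served as an alternative. The script was tested on simulated data. The members entered this fit, but no test of them is reported. The text names all members, the called genes and the most abundant gene of each of the 6 pathway lists, the called and the nearest neighbours within 1 Mb, and the 5 genes most like *H2-T10*, of which 1 is not reported here. Cell type markers and a few genes named beyond these were chosen after their values were seen. Levels per length used merged exons. Shared windows and coding identity were computed from GENCODE M21 transcripts with Biopython 1.88, and promoters are RefSeq windows on GRCm38.p6. Python 3.11.15 and matplotlib 3.10.9 were used for the figures.

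Alternatives were no intensity trend, library weights, voom weights, quantile normalization, median centring, a mean log2 value of at least 3, averages of libraries that share genotype and title number (3 against 2), each library left out, and stricter thresholds. The mean of the enamel matrix genes as a term, and libraries 52 and 56 left out together, were added after the data were seen.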

Additional observations from a re-analysis of the deposited data

Results flagged for a closer look

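Among 46 genes examined in 92 groups of 4 libraries, 8 library values lay far from the other 3 of their group by Dixon's criterion, where chance gives about 1 in 20 groups. *H2-T22* in mutant library 54 was the 1 member among them, at a log2 value of 5.44 against 4.14 to 4.32 in the other mutants. *H2-Ab1* was also high in library 54, at 4.84. In the controls, 4 interferon response genes were high in library 52, with 6.93 for *Ifit3*, 5.44 for *Igtp*, 6.44 for *Iigp1* and 6.53 for *Usp18*. *Trim25* was low in library 51, at 5.26, and *Gm9855*, the gene most like *H2-T10*, was high in library 49, at 2.28.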

How the results depend on the processing

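No paired analysis was possible because the title numbers, 4, 4, 2 and 5 for Osterix-Cre against 3, 2, 2 and 3 for *Tgfbr2cko*, share only the number 2, and a block would rest on 1 control against 2 mutants. All 152 alternative values of the members' differences moved by less than 1 SD between replicates, which is no sign of stability. Leaving out 1 of 4 libraries cannot move a mean that far. The fits without the intensity trend or with the filter on mean log2 return the same differences by construction. The sign was kept in every alternative for 8 members, with ranges of 2.30 to 3.08 for *H2-T10*, -0.91 to -0.39 for *H2-T22*, -1.04 to -0.64 for *H2-T23*, -0.48 to -0.29 for *H2-K1*, -0.41 to -0.08 for *H2-D1*, -0.41 to -0.05 for *B2m*, -0.66 to -0.19 for *Tap2* and -0.32 to -0.13 for *Tapbp*. It was kept in 15 of 17 for *Tap1*, with a range of -0.36 to 0.15. *H2-T10* had no value under the filter on mean log2 of at least 3.

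The 701 genes called in all became 115 at an adjusted p under 0.05 and 256 at 2-fold, and 625 to 947 when 1 library was left out. Of the 23 calls in the 6 lists, 3 were left at the adjusted p and 13 at 2-fold, while the fit with the enamel matrix mean made 15, the fit without libraries 52 and 56 made 11, and fits without 1 library made 15 to 29, with the 15 without library 56. The 18 interferon calls became 2 at the adjusted p, 11 at 2-fold and 9 without libraries 52 and 56, with 14 to 19 without 1 library. The 1 call among the neighbours of *H2-T10* became 0 at the adjusted p and 0 at 2-fold. It became 2 without libraries 52 and 56 or without library 52, with *D17H6S53E* added (-0.91 and -0.88), and 2 without library 53, with *Aif1* added (-0.75), so that leaving out 1 library gave 1 to 2. Per length of the longest transcript, the control levels were 79.3 for *H2-K1*, 231 for *H2-D1*, 10.2 for *Tap1* and 101 for *Tapbp*, and the order of the members did not change. Of the alternative values of named genes outside the set, 474 kept the call or its absence, 66 lost it and 1 gained it. Why the counts moved was not tested. At 3 to 12 reads, the control values of *H2-T10* are limited by counting.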
